A study of Homo sapiens with 6 samples.

Results

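The genes described here encode the proteins that form, restrain and dissolve blood clots, and 32 were chosen by symbol for their roles, with earlier results of these data known: clotting factors, fibrinogen chains, natural anticoagulants, fibrinolysis genes and the vitamin K cycle. All 32 symbols matched 1 row each of the 60564 rows of the deposited table that carry an Ensembl gene identifier. RNA sequencing was done on 6 libraries of HepG2, a hepatocellular tumour line that still secretes many plasma proteins, labelled wild type and grown in DMEM with fetal calf serum and antibiotics. In 3 libraries the label gives DMEM as the treatment (control), and in 3 it gives formononetin, a methoxylated isoflavone of legumes; the protocol names 625 (unit written μm) for 72 h. Neither a solvent nor a culture time is given for the controls, and replicates are not stated to be separate cultures. The p-values therefore cover only the spread among these libraries, which may be technical. The series presents formononetin as an active compound of a herb pair studied in hepatocellular carcinoma.

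Clotting is a chain of proteases. Tissue factor with factor VII starts it, factors XI, IX and X with their cofactors carry it to prothrombin, and thrombin then cuts fibrinogen, a protein of 3 kinds of chain, into fibrin. Antithrombin, heparin cofactor II, tissue factor pathway inhibitor and the protein C system hold it back, and plasmin, made from plasminogen by urokinase or tissue plasminogen activator, dissolves the clot. Hepatocytes make most of these proteins, and several of them work only after a vitamin K-dependent carboxylation.

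Counts on named genes totalled 30848848 to 45682722 per library, all formononetin libraries being above all controls. Levels are in CPM (counts per 1000000 of the TMM-scaled total), and log2 fold changes are formononetin against control ± standard error from the quasi-likelihood test of edgeR, with p-values adjusted by Benjamini-Hochberg over all 22230 genes tested. Of these, 2659 were higher and 1937 lower at an adjusted p under 0.05, a split that was 1813 higher and 2737 lower under upper quartile scaling. The hepatocyte markers were present, with 7 of 7 detected and 45100 to 46400 CPM in sum in control against 37400 to 38600 CPM in formononetin libraries, where 5 fell and 1 rose. APOB held the largest part of this sum (mean 25700 against 23500 CPM) and changed by only -0.13 ± 0.03. The falls of ALB (-0.46 ± 0.05), TTR (-0.55 ± 0.06), TF (-0.64 ± 0.03) and SERPINA1 (-0.57 ± 0.06) were larger. HNF4A rose (0.44 ± 0.09) and APOA1 was not called (0.07 ± 0.04). Markers of other cells were low in sum: endothelial 22.4 to 26 against 24.1 to 28.4 CPM (TEK at 0), megakaryocyte and platelet 3.1 to 3.71 against 2.45 to 3.92 CPM (GP9, PF4 and PPBP at 0), macrophage 3.83 to 5.82 against 7.53 to 9.17 CPM (PTPRC at 0), stellate cell and fibroblast 12.9 to 15 against 3.81 to 4.58 CPM (COL1A2, DCN and LUM at 0). Their part, and that of the fall in hepatocyte markers, in the results below was not tested. Most of the sums of other cells came from PECAM1 (mean 23.2 CPM in control against 25.7 CPM with formononetin), GP1BA (2.67 against 2.8), CD68 (3.34 against 6.72) and PDGFRB (13.3 against 4.04). CD68 was called higher (1.01 ± 0.23, adjusted p = 0.0204) and PDGFRB lower (-1.72 ± 0.12, adjusted p = 0.000229), while PECAM1 and GP1BA were not called. All libraries are labelled as the HepG2 line. In bulk samples, fewer cells of a type and less RNA per cell cannot be told apart.

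Most of the clotting genes that could be tested had less transcript with formononetin, and a larger share of procoagulant than of anticoagulant genes fell. Of the 32 genes 28 had enough counts to be tested, and 17 of them fell, 2 rose and 9 were not called, with a median log2 fold change of -0.30. Over all genes tested, 8.71% were called lower and 12% higher (20.7% either way), and the median was -0.01. The share that fell was thus 60.7% of the clotting genes tested, and among the 21 at a mean log2 CPM from 3 upward it was 15, where 12.7% of genes so expressed were lower and 34.3% were called either way. In 17 of the 28, every formononetin library lay below every control library (18.7% of all genes tested). In the procoagulant arm 9 of 11 tested genes fell and none rose (median -0.51). In the anticoagulant arm 3 of 9 fell and 1 rose (median 0.00), and in fibrinolysis 3 of 5 fell and 1 rose (median -0.36). Single anticoagulant genes could fall as far, SERPIND1 (-0.78) by more than any tested procoagulant gene but FGB (-0.81). Without control replicate 1, lower anticoagulant genes numbered 4, TFPI being added, and lower procoagulant genes 8. SERPINA5, the protein C inhibitor, is 1 of the 3 genes that fell in the anticoagulant arm, and no other grouping was tried. The difference between the arms is a description and was not tested, since these genes were chosen with results known.

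**Figure D1:**
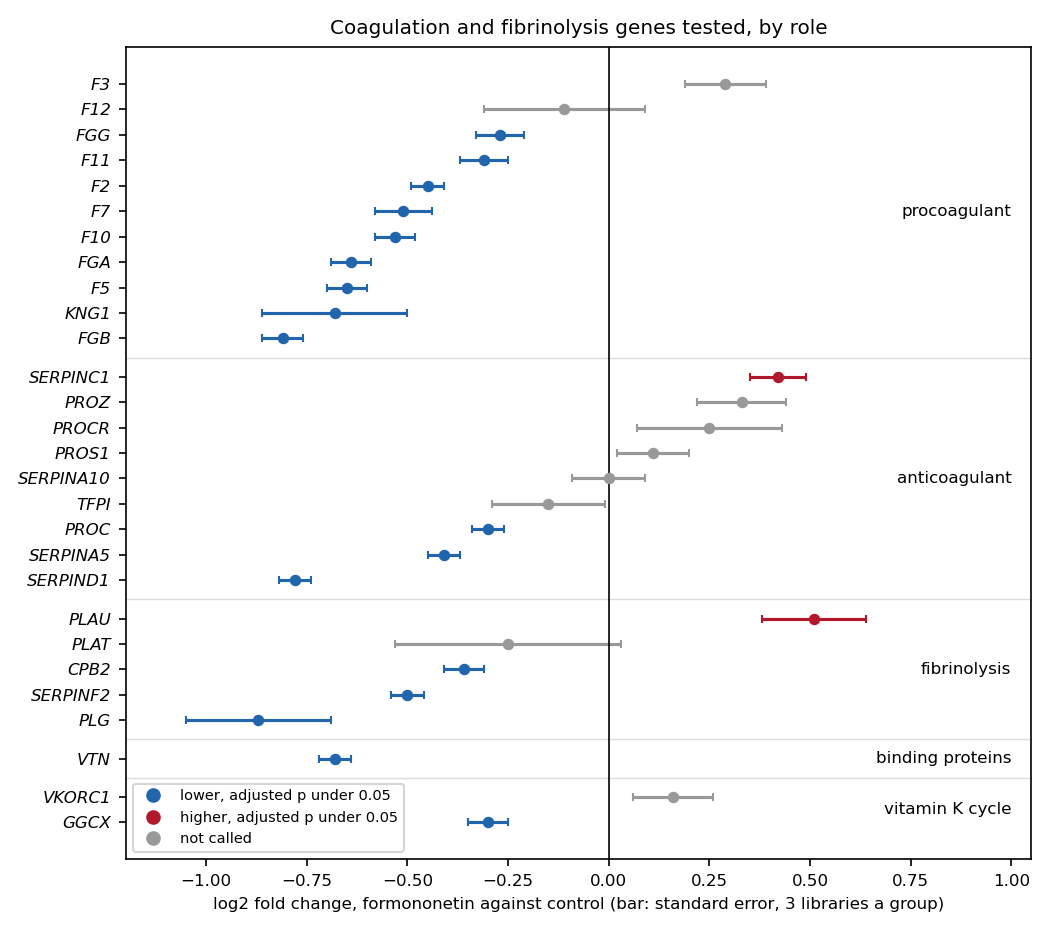
Log2 fold change of formononetin against control (horizontal axis) for each of the 28 tested genes, grouped by role, with bars for the standard error (3 libraries a group). Procoagulant genes lie mostly left of 0, down to -0.81 for FGB, while anticoagulant genes spread from -0.78 (SERPIND1) to 0.42 (SERPINC1).

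The fibrinogen genes lie side by side on chromosome 4 (GRCh38), FGB at 154562956 to 154571086, FGA at 154583126 to 154590766 and FGG at 154604134 to 154612967. A stretch of the FGB promoter is shown first because this chain fell most. Sequences are from RefSeq (GRCh38.p14), which held windows for 29 of the genes searched, taken as the 250 bases before each start and read on both strands. SERPINC1 and SERPINF2 had no entry, and PLAT was not searched. The core of the interleukin-6 response element of acute phase genes (CTGGGAA) was before 5 of 29 (FGB, FGG, F10, F9 and PLG) and before 11.1% of all genes. Capitals mark it here (TTCCCAG when read on the other strand) for the chain with the deepest fall and for factor X:
FGB (chr4:154562841-154562901, plus strand): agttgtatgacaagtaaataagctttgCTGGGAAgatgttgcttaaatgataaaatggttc
F10 (chr13:113122665-113122725, plus strand): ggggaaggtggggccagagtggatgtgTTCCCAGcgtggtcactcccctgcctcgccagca
Of the other motifs searched, CAAAGTCCA (HNF4) was before PROZ alone (0.403% of all genes), TTGNNNAA (C/EBP) before 16 of 29 (35% of all), CCAAT before 12 (37% of all), GCGTG, the core bound by the aryl hydrocarbon receptor, before 5 (36.2% of all), and TATAAA before 4 (13% of all). A match is a run of letters and not a shown binding site. Of the fibrinogen genes with the CTGGGAA core, FGB changed by -0.81 and FGG by -0.27, and FGA, without it, by -0.64. A link between motifs and fold changes was not tested.

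FGB, the beta chain, was at 173, 184 and 181 CPM in control replicates 1 to 3 and at 105, 96.7 and 104 CPM in formononetin replicates 1 to 3, a log2 fold change of -0.81 ± 0.05 (adjusted p = 0.000188). FGA, the alpha chain, was at 626, 703 and 701 CPM without formononetin and 447, 424 and 435 CPM with it (-0.64 ± 0.05, adjusted p = 0.000492). FGG, the gamma chain, was at 479, 559 and 520 CPM without formononetin and 441, 422 and 428 CPM with it (-0.27 ± 0.06, adjusted p = 0.0178). For each chain the formononetin libraries were all below the controls, and for FGG the gap was narrow, since control replicate 1 at 479 CPM lay near formononetin replicate 1 at 441 CPM. The call of FGG ended when control replicate 3, formononetin replicate 2 or formononetin replicate 3 was left out (adjusted p = 0.0529 to 0.0638), and those of FGA and FGB were kept in all 15 alternatives.

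The balance of the fibrinogen chains differed between the groups. The log2 ratio of FGB to FGG counts, which no scaling of libraries can change, was -1.47, -1.60 and -1.53 in control and -2.06, -2.13 and -2.04 in formononetin libraries. That of FGA to FGG went from 0.39, 0.33 and 0.43 to 0.02, 0.01 and 0.03, and that of FGA to FGB from 1.86, 1.93 and 1.96 to 2.08, 2.13 and 2.06. The groups were separate for each ratio, with differences of -0.54, -0.37 and 0.18 and an exact permutation p of 0.1 each (two-sided), the smallest that 3 against 3 libraries can give. FGG had the smallest log2 fold change of the 3 chains, and the adjusted p over the 8 ratios computed, chosen after the values were seen, was 0.114.

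**Figure D2:**
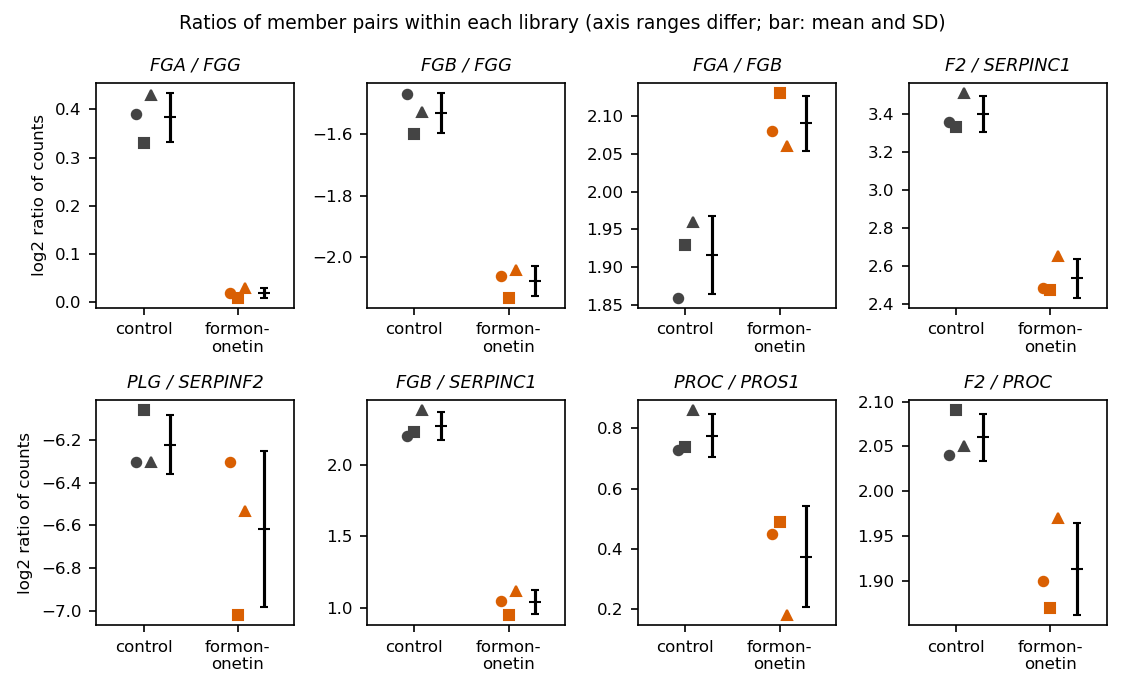
Log2 ratio of the counts of 2 genes within each library (vertical axis) for 8 pairs, with control in grey and formononetin in orange, circles, squares and triangles for replicates 1 to 3, and bars for mean and SD (n = 3). The groups are separate in 7 of the 8 panels and meet only for PLG against SERPINF2, and axis ranges differ between panels.

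Prothrombin, factor V and factor X transcripts each fell. F2, which encodes prothrombin (chromosome 11, 46719180 to 46739506), was at 385, 396 and 393 CPM without formononetin and 285, 278 and 300 CPM with it (-0.45 ± 0.04, adjusted p = 0.000661). F5, the cofactor of factor X (chromosome 1, 169514166 to 169586588), was at 334, 377 and 348 CPM without formononetin and 222, 226 and 225 CPM with it (-0.65 ± 0.05, adjusted p = 0.000369). F10, the protease that cuts prothrombin (chromosome 13, 113122814 to 113149529), was at 54.5, 53.4 and 55.7 CPM without formononetin and 37.5, 38.3 and 37.5 CPM with it (-0.53 ± 0.05, adjusted p = 0.000661). For each of these genes all formononetin libraries were below all controls. A gene model on the opposite strand, AL137002.2, overlaps 98 bases of F10 exons and was at 11.7 ± 1.33 CPM without formononetin and 9.09 ± 0.308 CPM with it (SD, n = 3).

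Of the genes of the starting factors, F7 fell and F3 was not called, both at lower levels than F2, F5 and F10. F7, which encodes factor VII (chromosome 13, 113105788 to 113120681), was at 21.1, 20.7 and 19.9 CPM without formononetin and 14, 15.3 and 14 CPM with it (-0.51 ± 0.07, adjusted p = 0.0036). F3, tissue factor, the membrane partner of factor VII, was at 7.99 to 8.49 CPM without formononetin and 9.66 to 10.9 CPM with it. All F3 values with formononetin were higher than in control, but the gene was not called (0.29 ± 0.10, adjusted p = 0.0739, and 0.0565 to 0.208 over the alternatives). F11, of the intrinsic pathway (chromosome 4, 186265945 to 186288806), was at 36.3, 39.6 and 38.4 CPM without formononetin and 31.2, 30.2 and 31.2 CPM with it (-0.31 ± 0.06, adjusted p = 0.0112). The antisense gene F11-AS1 overlaps 354 bases of F11 exons and was not called (-0.17 ± 0.20, adjusted p = 0.618).

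The contact factors had few counts. KNG1, which encodes kininogen, was at 2.79 to 3.26 CPM without formononetin and 1.54 to 2.2 CPM with it (-0.68 ± 0.18, adjusted p = 0.033), a call that ended when any 1 control library, formononetin replicate 1 or formononetin replicate 3 was left out (adjusted p = 0.0503 to 0.0932), with no low-count filter (0.0602), and in the fit with the replicate number as a block (0.0688). F12, factor XII, was at 1.12 to 1.54 CPM without formononetin and 1.06 to 1.24 CPM with it (-0.11 ± 0.20, adjusted p = 0.766). GRK6, on the opposite strand, overlaps 399 bases of F12 exons and had 8724 counts over the libraries against 271 for F12. KLKB1, prekallikrein, had 3 to 19 counts per library, and F13B, which carries the fibrin-linking factor XIII, had 14, 7 and 16 counts in control replicates 1 to 3 and 7, 3 and 7 counts in formononetin replicates 1 to 3. Neither was tested. F9, factor IX, had 0 counts in every library, which allows at most 0.0657 to 0.0972 CPM per library (3 counts, counting error only).

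Anticoagulant genes moved in both directions. SERPINC1, which encodes antithrombin, the main inhibitor of thrombin and factor X (chromosome 1, 173903804 to 173917378), was at 37.6, 39.4 and 34.6 CPM without formononetin and 51, 50.2 and 47.9 CPM with it (0.42 ± 0.07, adjusted p = 0.00476). It was the sole tested anticoagulant gene called higher, and its formononetin libraries were all above the controls. SERPIND1, heparin cofactor II, which also inhibits thrombin (chromosome 22, 20773879 to 20787720), went the other way, at 505, 535 and 524 CPM without formononetin and 295, 305 and 312 CPM with it (-0.78 ± 0.04, adjusted p = 9.99e-05). The 2 thrombin inhibitors thus differed in direction, and SERPIND1 had the lowest adjusted p of the clotting genes tested. Both calls were kept in all 15 alternatives.

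The protein C system was mixed. PROC, which encodes protein C (chromosome 2, 127418427 to 127429246), was at 93.9, 92.7 and 95.1 CPM without formononetin and 76.5, 76 and 76.5 CPM with it (-0.30 ± 0.04, adjusted p = 0.00278). Its cofactor gene PROS1 was at 52.4 to 56.4 CPM without formononetin and 56.1, 54 and 67.5 CPM with it, and was not called (0.11 ± 0.09, adjusted p = 0.435, or 0.00 if formononetin replicate 3 is left out). PROCR, the receptor that presents protein C on cells, was at 1.95 to 2.46 against 2.17 to 3.05 CPM (0.25 ± 0.18, adjusted p = 0.391). Of these genes PROC alone had groups that did not overlap.

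SERPINA5, the protein C inhibitor, which also inhibits urokinase (chromosome 14, 94561442 to 94593120), was at 525, 541 and 513 CPM without formononetin and 402, 387 and 399 CPM with it (-0.41 ± 0.04, adjusted p = 0.000681). Its exons overlap on the same strand those of SERPINA4 by 53 bases and those of the gene model AL049839.2 by 79 bases. The latter was at 81, 491 and 459 CPM without formononetin and 49.2, 364 and 52.4 CPM with it, and the 3 summed were no longer called (-0.66, adjusted p = 0.102). The split of reads at this locus is therefore uncertain, and the call of SERPINA5 on its own row was kept in the other 15 alternatives.

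The remaining anticoagulant genes, PROZ, SERPINA10 and TFPI, were not called. PROZ, which encodes protein Z, a cofactor for inhibition of factor X, was at 4.77 to 5.3 CPM without formononetin and 5.85 to 6.75 CPM with it (0.33 ± 0.11, adjusted p = 0.0778), and was called when libraries were scaled by their total alone (0.38, adjusted p = 0.0498). SERPINA10, the inhibitor that protein Z assists, was at 22.1 to 27.1 against 23.8 to 26.3 CPM (0.00 ± 0.09, adjusted p = 0.984). TFPI, the inhibitor of tissue factor and factor VII, was at 440, 666 and 596 CPM without formononetin and 520, 528 and 485 CPM with it (-0.15 ± 0.14, adjusted p = 0.496). Control replicate 1 was the lowest TFPI library, and without it the gene was called lower (-0.30, adjusted p = 0.0247). The opposite-strand gene AC007319.1 overlaps 118 exon bases of TFPI and fell by 0.38 (adjusted p = 0.0394).

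**Figure D3:**
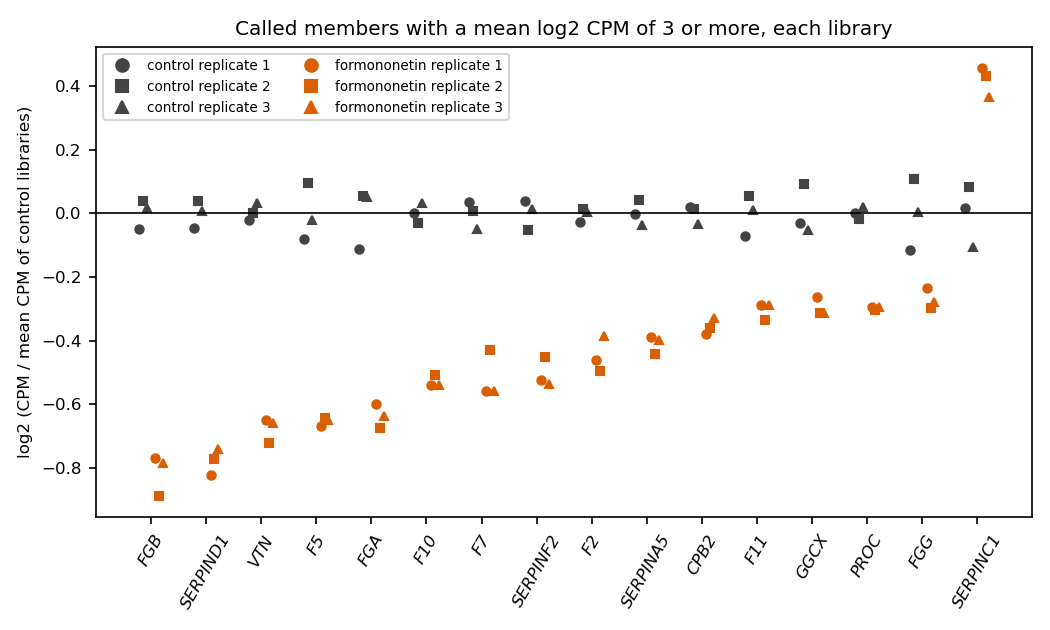
Log2 of the CPM in each library over the mean CPM of the controls (vertical axis) for the 16 called genes whose mean log2 CPM was at least 3, control in grey and formononetin in orange, with 1 symbol per replicate. All formononetin points lie below the control points except for SERPINC1, where all lie above.

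Within libraries, prothrombin and FGB transcripts were lower relative to antithrombin transcript with formononetin. The log2 ratio of F2 to SERPINC1 counts was 3.36, 3.33 and 3.51 in control and 2.48, 2.47 and 2.65 in formononetin libraries, a difference of -0.87. For FGB against SERPINC1 the means were 2.27 ± 0.10 and 1.04 ± 0.09 (SD, n = 3), a difference of -1.23, while F2 against PROC differed by only -0.15 (2.06 ± 0.03 against 1.91 ± 0.05). PROC against PROS1 differed by -0.40, from 0.73, 0.74 and 0.86 to 0.45, 0.49 and 0.18, the last being formononetin replicate 3. Each of these had an exact permutation p of 0.1 (two-sided), the smallest possible, and an adjusted p of 0.114 over the 8 ratios. The pairs were chosen after the values were seen. F2 and FGB were lower and SERPINC1 higher in every formononetin library than in every control, so their ratios to SERPINC1 had to separate. The p-values of those ratios add nothing to the calls of the single genes. The ratios restate, within libraries, the fold changes of the single genes.

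In fibrinolysis, the plasminogen gene and both inhibitor genes fell while urokinase rose. PLG, the precursor of plasmin, was at 3.98, 4.41 and 3.92 CPM without formononetin and 2.7, 1.73 and 2.29 CPM with it (-0.87 ± 0.18, adjusted p = 0.0154, and 0.0529 without control replicate 2). PLAU, urokinase, was at 2.83, 2.76 and 2.53 CPM without formononetin and 3.47, 3.98 and 4.1 CPM with it (0.51 ± 0.13, adjusted p = 0.0341). The PLAU call ended when any 1 control library, formononetin replicate 2 or formononetin replicate 3 was left out (adjusted p = 0.0659 to 0.111). It was also lost with the replicate block (0.0869), upper quartile scaling (0.0596), DESeq2 (0.0507) and no low-count filter (0.0505). The gene model C10orf55, with 39 counts in all against 749, overlaps 31.1% of its exon bases on the opposite strand. PLAT, tissue plasminogen activator, was at 0.893 to 1.81 against 1.09 to 1.36 CPM and was not called (-0.25 ± 0.28, adjusted p = 0.593).

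The inhibitors were more abundant and less variable. SERPINF2, which encodes alpha-2-antiplasmin, the fast inhibitor of plasmin (chromosome 17, 1742836 to 1755268), was at 314, 295 and 309 CPM without formononetin and 213, 224 and 211 CPM with it (-0.50 ± 0.04, adjusted p = 0.000514). CPB2, whose product TAFI trims fibrin so that plasminogen binds less (chromosome 13, 46053195 to 46105033), was at 69.5, 69.1 and 66.9 CPM without formononetin and 52.7, 53.4 and 54.5 CPM with it (-0.36 ± 0.05, adjusted p = 0.00233). The groups were separate for both genes. The ratio of PLG to SERPINF2 counts was lower by 0.39 on the log2 scale in formononetin libraries, but the groups met at -6.30 (exact permutation p = 0.3, two-sided).

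Among binding proteins, VTN, which encodes vitronectin, an adhesive protein of plasma (chromosome 17, 28367276 to 28373091), was at 218, 221 and 226 CPM without formononetin and 141, 134 and 140 CPM with it (-0.68 ± 0.04, adjusted p = 0.00016). HRG, the histidine-rich glycoprotein, had at most 5 counts in any library and was not tested. In the vitamin K cycle, GGCX, the carboxylase that completes factors II, VII, IX and X and proteins C, S and Z (chromosome 2, 85544723 to 85561547), was at 135, 147 and 133 CPM without formononetin and 115, 111 and 111 CPM with it (-0.30 ± 0.05, adjusted p = 0.00685). VKORC1, which regenerates the vitamin for it, was at 29.1 to 31.9 against 29.2 to 38.1 CPM and was not called (0.16 ± 0.10, adjusted p = 0.343). MAT2A overlaps GGCX on the opposite strand by 558 exon bases and was not called (0.03 ± 0.07, adjusted p = 0.792). A gene model on the same strand, AC135050.2, covers 34.7% of VKORC1 exon bases with 452 counts against 7277. Another on the opposite strand covers 58.1% with 295 counts.

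Per kilobase of exon, the most abundant clotting transcript of control libraries was SERPIND1, at a level of 204 ± 6.02 CPM per kb (SD, n = 3). FGA followed at 171 ± 11.2, F2 at 154 ± 2.15, FGG at 144 ± 11.1, SERPINA5 at 139 ± 3.69 and SERPINF2 at 130 ± 4.36 CPM per kb, where F2 differed from FGG, and FGG from SERPINA5, by less than the SD of FGG. In formononetin libraries FGG (120 ± 2.69 CPM per kb) and SERPIND1 (119 ± 3.5 CPM per kb) led and could not be ranked, with F2 at 113 ± 4.42, FGA at 110 ± 2.94 and SERPINA5 at 105 ± 2.21 CPM per kb. The beta chain stayed the scarcest fibrinogen transcript, with FGB at a level of 66.2 ± 2.15 CPM per kb in control and 37.7 ± 1.75 CPM per kb in formononetin libraries. SERPINC1 was at 21 ± 1.36 and 28.1 ± 0.885 CPM per kb. Summed, the 32 genes held 4590 to 5080 CPM without formononetin and 3540 to 3600 CPM with it.

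Other genes of the system, 37 taken from general knowledge, were split, with 10 of 32 tested raised and 10 lowered (median 0.05), where 12% of all genes tested were higher and 8.71% lower. ANXA2, which binds plasminogen at the cell surface, rose from 72.9 ± 9.5 to 117 ± 16.9 CPM (0.69 ± 0.13, adjusted p = 0.0102) and its partner S100A10 rose from 31.7 ± 0.464 to 43.8 ± 2.29 CPM (0.47 ± 0.06, adjusted p = 0.00216). The urokinase receptor gene PLAUR (0.74 ± 0.20, adjusted p = 0.0362) and the plasminogen receptor gene PLGRKT (0.53 ± 0.14, adjusted p = 0.0344) were called at low levels. The call of PLAUR ended when control replicate 2, control replicate 3 or any 1 formononetin library was left out (adjusted p up to 0.106), and that of PLGRKT when any 1 library was (up to 0.102) or with the replicate block (0.0727). Both calls were also lost under upper quartile scaling (0.0522 for PLAUR and 0.0588 for PLGRKT) and with no low-count filter (0.0532 and 0.051), and that of PLGRKT under DESeq2 (0.0696).

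The thrombin receptor gene F2R rose from 13.7 ± 1.29 to 21.5 ± 0.219 CPM (0.65 ± 0.09, adjusted p = 0.00256) and F2RL1, a related receptor for other proteases, by 0.45 ± 0.07 (adjusted p = 0.00559). LMAN1, which carries factors V and VIII out of the endoplasmic reticulum, rose by 0.38 ± 0.04 (adjusted p = 0.00141). VKORC1L1, the paralog of VKORC1, fell from 49.8 ± 2.68 to 22.7 ± 1.2 CPM (-1.13 ± 0.07, adjusted p = 0.000167), the largest fall among these genes that was called. C4BPA, the alpha chain of the complement protein that binds protein S, changed by -0.93 ± 0.06 (adjusted p = 0.000207). The broad protease inhibitor genes A2M (-0.66 ± 0.05, adjusted p = 0.000229) and SERPINA1 (-0.57 ± 0.06, adjusted p = 0.00118) fell, as did FN1, fibronectin (-0.59 ± 0.04, adjusted p = 0.000213), and FURIN, a convertase (-0.37 ± 0.05, adjusted p = 0.00319). ASGR2 changed by -0.24 ± 0.05 (adjusted p = 0.0137, and 0.0529 without formononetin replicate 2).

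The remaining calls in this group were weak. TPST2 (0.34 ± 0.10, adjusted p = 0.0472), PCYOX1 (0.17 ± 0.04, adjusted p = 0.0248), HPN, a protease of hepatocytes (-0.31 ± 0.08, adjusted p = 0.0318), HGFAC (-0.56 ± 0.14, adjusted p = 0.0307) and C4BPB (-0.21 ± 0.06, adjusted p = 0.0353) were each lost with the replicate block and when single libraries were left out. For TPST2 these were control replicates 1 and 3 and each formononetin replicate, for PCYOX1 and C4BPB control replicates 2 and 3 and each formononetin replicate, for HPN each control replicate and formononetin replicates 1 and 3, and for HGFAC control replicates 2 and 3 and formononetin replicates 2 and 3. The adjusted p without 1 library ran up to 0.15 for TPST2, 0.091 for PCYOX1, 0.0893 for HPN, 0.0973 for HGFAC and 0.104 for C4BPB. With no low-count filter the calls of TPST2 (0.0715), HPN (0.064), HGFAC (0.0574) and C4BPB (0.0937) were lost as well. So were those of PCYOX1 (0.159) and TPST2 (0.103) under upper quartile scaling, HPN (0.0645) and C4BPB (0.106) under scaling by library total, and TPST2 (0.0506) under RLE scaling. Among these other genes, 6 were raised without control replicate 3, formononetin replicate 1 or formononetin replicate 3. THBD, thrombomodulin, had 0 counts in all libraries, and F8 was at 0.383 to 0.559 against 0.681 to 0.794 CPM and was not called (0.69 ± 0.26, adjusted p = 0.102).

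**Figure D4:**
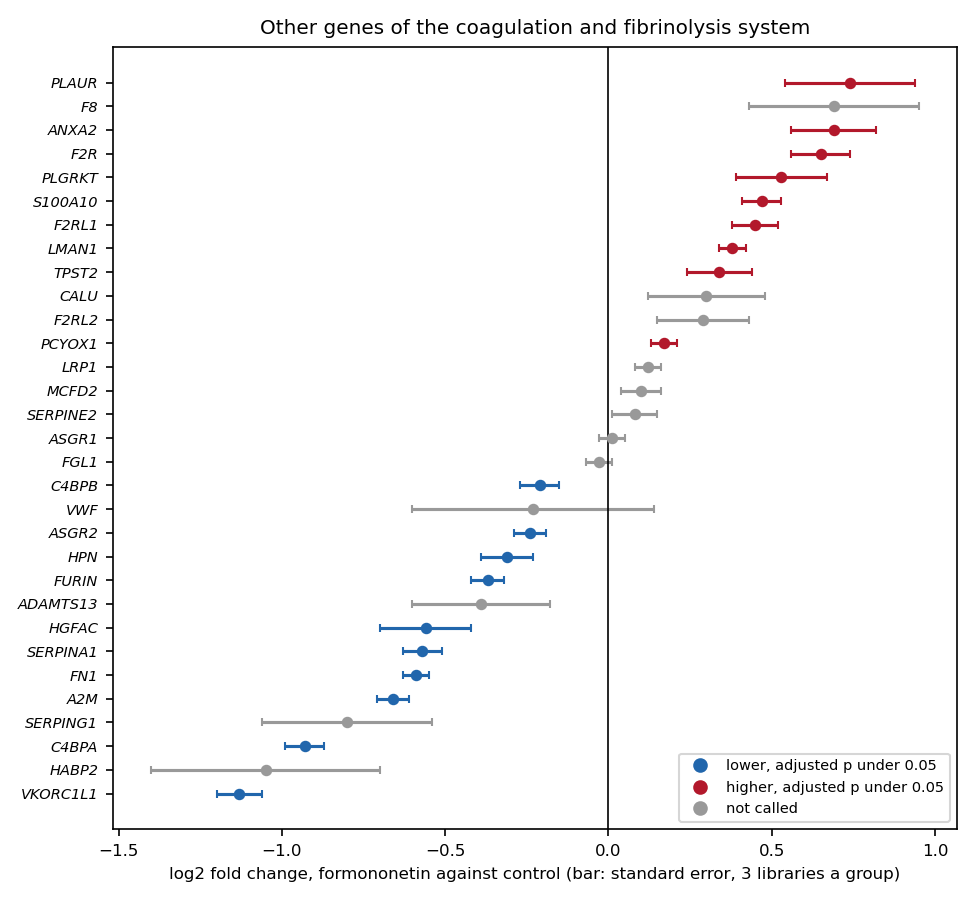
Log2 fold change of formononetin against control (horizontal axis) for tested genes of the system outside the 32 clotting genes, with bars for the standard error (3 libraries a group). Values run from -1.13 for VKORC1L1 to 0.74 for PLAUR.

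Regulators of hepatocyte genes were also measured, since the promoters above carry motifs of some, and the genes named here were chosen after their values were seen. Of 19 tested, 4 rose and 6 fell (median -0.26), where 12% of all genes tested were higher and 8.71% lower. HNF4A rose from 185 ± 6.4 to 251 ± 31.3 CPM (0.44 ± 0.09, adjusted p = 0.012). The interleukin-6 receptor gene IL6R rose from 17 ± 0.899 to 36.5 ± 3 CPM (1.11 ± 0.08, adjusted p = 0.000322) and its signalling partner IL6ST by 0.36 ± 0.08 (adjusted p = 0.0197, and 0.0584 without formononetin replicate 3). Among those that fell were ONECUT1 (-0.82 ± 0.06, adjusted p = 0.000364) and FOXA2 (-0.50 ± 0.06, adjusted p = 0.00168). STAT3 (-0.09 ± 0.04, adjusted p = 0.15) and SOCS3 (-0.33 ± 0.14, adjusted p = 0.146) were not called. The part of these genes in the fibrinogen result was not tested.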

How the data were processed

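The authors deposited 1 table of raw counts, whole numbers for each gene and library. Per the submitters' processing notes the build was GRCh38 and the tools STAR 2.5.3a and StringTie 1.3.1c, without roles; per the labels' protocols the kit was stranded. How reads were counted, with which strand setting and gene models, is not given in the sources used here. Genes that overlap on either strand are therefore uncertain. Rows that name no gene (2165 of 62729, 3.82 to 5.62% of counts per library) entered neither library sizes nor tests. Gene symbols were matched by Ensembl identifier (60295 rows) and positions and exon lengths from GENCODE 29.

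Genes were filtered with filterByExpr, scaled with TMM and tested with edgeR 4.0.16 under R 4.3.3 (quasi-likelihood) with a group term and no covariate (3 against 3 libraries, adjusted p under 0.05). The test was tried on simulated counts. Each standard error was derived from the fold change and its F statistic, as log2 fold change / √F. Depths of 30848848 to 45682722 counts leave a gene with 0 counts below 0.0657 to 0.0972 CPM. Genes called, with separate groups and mean log2 CPM of at least 3, are given library by library, the others by range, and called genes of the other list with values. Ratios of counts were compared by exact permutation. Alternatives were DESeq2 1.42.0, limma 3.58.1 (voom), other scalings and filters, the rows without a gene, a replicate block, leaving out each library, and summing overlapping genes. The gene lists, members and tests were chosen with earlier results of these data known. Figures used matplotlib 3.10.9. Some genes and motifs of these lists are not reported here.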

Additional observations from a re-analysis of the deposited data

How the results depend on the processing

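Called clotting genes numbered 16 to 20 over the 15 alternatives, 15 to 17 of them lower. The count of raised genes was 1 in place of 2 under upper quartile scaling, DESeq2, no low-count filter, the replicate block or without 1 library (1 to 2), through PLAU, so that raised fibrinolysis genes numbered 0 in place of 1 there (0 to 1 without 1 library). Raised anticoagulant genes numbered 2 under scaling by library total, through PROZ. The procoagulant median was -0.59 under upper quartile scaling and -0.47 under library total, and that of fibrinolysis -0.43 and -0.31, and -0.51 to -0.34 without 1 library. Raised genes of the other list numbered 6 under upper quartile scaling and 6 to 8 without 1 library. Leaving out 1 library gave 3049 to 3667 calls over all genes, 1703 to 2189 higher and 1272 to 1478 lower. The replicate block gave 3283 calls over all genes. Libraries of the same replicate number did not deviate together, with correlations of deviations of 0.00, 0.01 and -0.02 for replicates 1 to 3. These values cannot show whether such libraries shared a culture, which the labels do not state. Values that changed sign were of genes not called: SERPINA10 (0.00 with RLE scaling or DESeq2, -0.08 under upper quartile scaling, -0.01 with a filter of 1 CPM in 3 libraries), and without 1 library SERPINA10 (-0.08 to 0.07), F12 (-0.19 to 0.05) and PROS1 (0.00 to 0.18). Depth limits KLKB1, F13B, HRG and F9.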
